A study of Mus musculus with 30 samples.

Results

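Transcripts of 10 genes of the circadian clock were followed through the Achilles tendon and the calcaneus, the heel bone, of mice: Arntl, Clock, Per1, Per2, Per3, Cry1, Nr1d1, Nr1d2, Dbp and Ciart. They were taken by name from the deposited gene count table, 10 of its 55426 genes. The choice was made with earlier results of these data known. The clock is a feedback loop of transcription present in nearly every cell. ARNTL (also called BMAL1) pairs with CLOCK, binds E-box motifs and switches on the Per and Cry genes, Nr1d1, Nr1d2, Dbp and Ciart. PER, CRY and CIART proteins repress that pair, the nuclear receptors NR1D1 and NR1D2 (REV-ERB) repress Arntl through RORE motifs, and DBP drives further genes through D-box motifs. Over a day, Arntl RNA is therefore high when Dbp and Nr1d1 RNA is low, in tendon, bone and muscle as in other tissues, and libraries taken at different hours can differ in both arms, in opposite directions. The hour at which each sample was taken is not in the labels, so in every comparison between groups below, a difference in hour and a difference in treatment cannot be told apart.

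The study asked how loading of the tendon and bone by light-driven muscle contraction changes gene expression. In each tissue there were 5 groups of 3 libraries: naive samples at day 0, unstimulated samples at day 5 and day 12, and stimulated samples at day 5 and day 12. All 10 groups, the naive ones included, were given as Acta1,Ai32 by genotype. The second name is that of a Cre-dependent allele of channelrhodopsin, an ion channel opened by light, and the first that of the skeletal muscle actin gene. The labels do not describe the line that drives Cre, the age of the mice, the lighting schedule of their housing or any batch, and they do not say that samples of a group came from separate animals. The p-values below therefore rest only on the spread between these samples, and that spread may be technical.

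Library totals ran from 24.5 to 44.6 M (mega) counts in tendon and from 19.3 to 35.0 M counts in bone. Bone samples 1 and 2 of the unstimulated day 5 group were the nearest pair of their kind by a wide margin (median absolute log2 ratio 0.0727, against 0.136 to 0.303 in the 29 other pairs), although they differed by more than counting error (chi-square of 6.28 per gene). They were summed and counted as 1 library, which leaves 2 libraries in that group. All 8 tendon fibroblast markers were detected in every tendon library and all 9 osteoblast and osteocyte markers in every bone library. Muscle fibre markers took 12.3 to 22.1% of the counts of tendon libraries, so the tendon libraries held muscle RNA. In bone libraries they took 0.0179 to 4.28%. Tendon fibroblast markers took 0.0442 to 0.441% of the counts in tendon and 0.213 to 0.617% in bone. In such bulk libraries fewer cells of a type and less RNA per cell cannot be told apart.

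To show where the clock proteins named above can bind, the promoters of the genes were read from RefSeq (assembly GRCm38.p6), as windows from 250 bases before to 50 bases after each annotated start. Windows were found for 9 of the 10 genes, 13 windows in all; Per2 was not among them. They were searched on both strands for the E-box CACGTG, the D-box TTATGNAA, the RORE core TAGGTCA and the cAMP response element TGACGTCA. Ciart held 3 E-boxes, at positions -116, -58 and -44 counted from the start, where the first transcribed base is position 0. Of 32544 promoters of the same length, 7.17% held an E-box, 3.39% a D-box, 2.61% a RORE core and 1.80% a cAMP response element. Per3 held 2 D-boxes, at -205 and -158. Per1 held an E-box at -166 and a D-box at -24, and Cry1 an E-box at -60. Arntl held a RORE core at position 30 of its second window. None of the 4 motifs was found in the windows of Clock, Nr1d1, Nr1d2 and Dbp, which says only that these letters are not in these windows. The stretches below carry the matches in capitals, 5′ to 3′ on the gene's own strand: chr3:95882229-95882378 (minus) for Ciart, chr4:151044766-151044885 (minus) for Per3, chr10:85185055-85185154 (minus) for Cry1, chr11:69098759-69098948 (plus) for Per1 and chr7:113207531-113207560 (plus) for Arntl. A match is a description and not a measured binding site.
Ciart: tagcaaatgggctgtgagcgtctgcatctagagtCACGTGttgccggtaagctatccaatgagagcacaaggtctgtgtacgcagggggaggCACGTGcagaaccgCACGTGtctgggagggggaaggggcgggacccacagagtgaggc
Per3: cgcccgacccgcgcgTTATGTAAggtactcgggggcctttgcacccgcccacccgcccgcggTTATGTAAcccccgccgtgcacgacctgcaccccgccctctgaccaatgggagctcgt
Cry1: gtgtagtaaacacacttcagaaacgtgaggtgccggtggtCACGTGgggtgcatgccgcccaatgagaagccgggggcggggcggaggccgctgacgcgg
Per1: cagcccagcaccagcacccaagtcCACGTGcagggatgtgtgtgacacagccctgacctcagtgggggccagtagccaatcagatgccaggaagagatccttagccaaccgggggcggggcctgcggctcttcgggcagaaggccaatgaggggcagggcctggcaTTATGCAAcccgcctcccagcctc
Arntl: aggcagaaagTAGGTCAgggacggaggtgc

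In tendon the naive group and the stimulated day 12 group lay at opposite ends for most of the 10 genes. Levels are given in CPM, a gene's counts per M counts of the scaled library total, and are compared only within a gene. The stimulated day 12 group had the highest mean of the 5 groups for Arntl, Clock and Cry1 and the lowest mean for the other 7 genes. The naive group had the lowest mean for those same 3 genes and the highest for Per3, Nr1d1, Nr1d2, Dbp and Ciart. The ratio of the highest to the lowest group mean ran from 1.10 for Clock to 3.47 for Arntl, with a median of 1.43. Groups next to each other in this order overlapped in their libraries in 37 of 40 neighbouring pairs, so the order is mostly a matter of its ends.

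**Figure D1:**
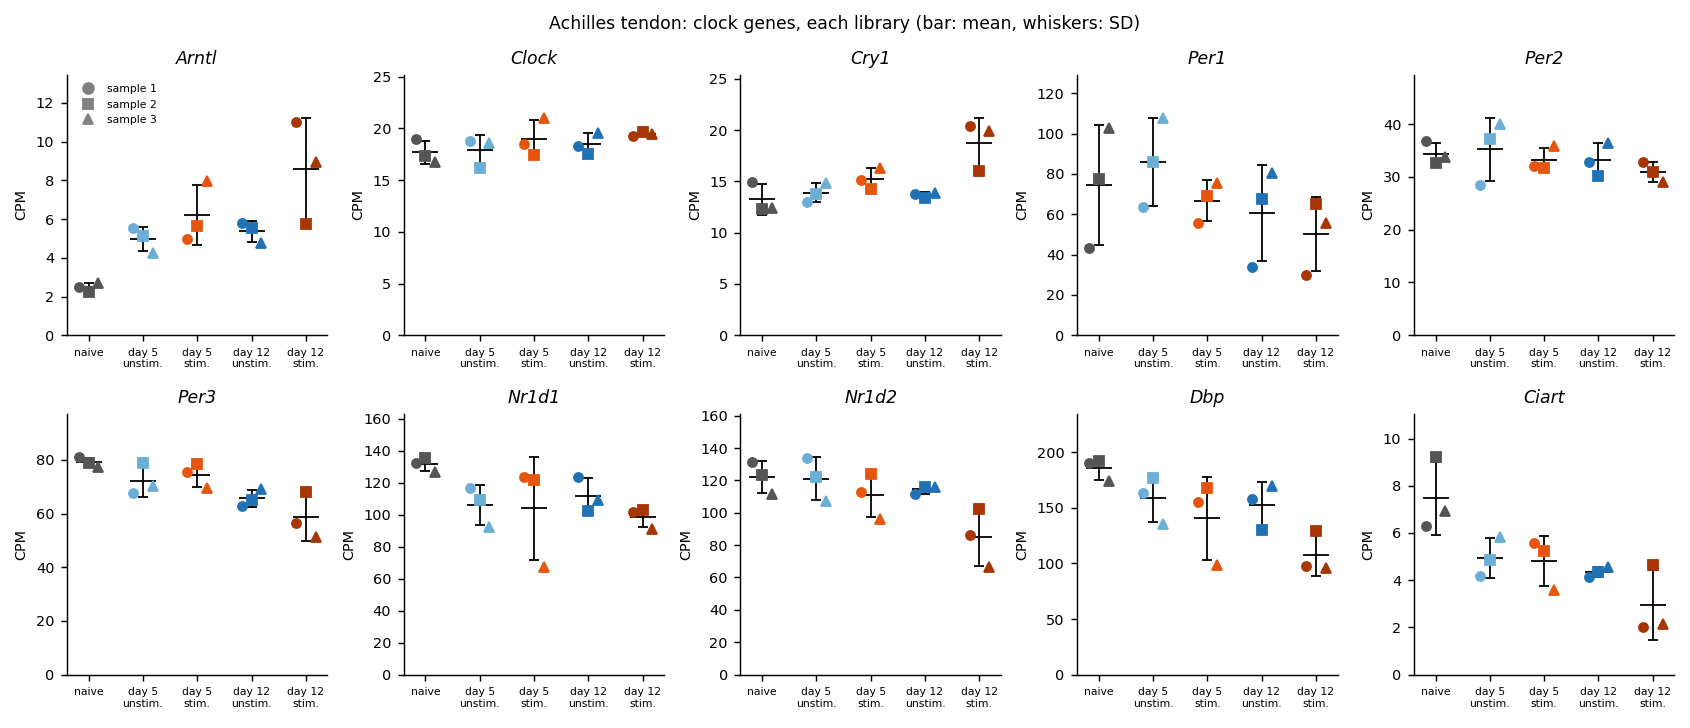
Each panel plots a clock gene's CPM (y axis, from 0) in the tendon libraries of the 5 groups (x axis); points are libraries, marked by sample number, and the bar and whiskers are the mean and SD. Arntl is lowest in the 3 naive libraries, at 2.23 to 2.702 CPM, and in the stimulated day 12 group sample 2 lies apart from samples 1 and 3 for Arntl, Cry1 and Ciart.

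Arntl (ENSMUSG00000055116, chromosome 7, plus strand), the activator whose RNA is lowest when E-box genes are high, stood at 2.49, 2.23 and 2.702 CPM in the naive tendon libraries. It stood at 5.52, 5.11 and 4.27 CPM in the unstimulated and at 5.00, 5.66 and 7.97 CPM in the stimulated libraries of day 5. At day 12 it stood at 5.77, 5.55 and 4.77 CPM in the unstimulated and at 11.01, 5.76 and 8.96 CPM in the stimulated libraries. All 12 later tendon libraries lay above all 3 naive ones, and the stimulated and unstimulated libraries overlapped at both days. Clock (ENSMUSG00000029238, chromosome 5, minus strand), the partner of ARNTL, varied little, between 16.2 and 21.0 CPM over the 15 tendon libraries.

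Dbp (ENSMUSG00000059824, chromosome 7, plus strand), the D-box factor that ARNTL and CLOCK drive, was measured at 190.2, 192 and 174 CPM in the naive tendon libraries. It was measured at 164, 177 and 135 CPM in the unstimulated and at 155, 168 and 98.4 CPM in the stimulated libraries of day 5. At day 12 the unstimulated libraries held 158, 129.9 and 169.7 CPM and the stimulated ones 97.5, 129 and 95.8 CPM. The 3 stimulated day 12 libraries lay below all naive and all unstimulated day 12 libraries, sample 2 only just below the lowest of the latter. Ciart (ENSMUSG00000038550, chromosome 3, minus strand), a repressor of the ARNTL and CLOCK pair, fell over a wider range, from 6.28, 9.21 and 6.93 CPM in naive to 2.03, 4.64 and 2.15 CPM in stimulated day 12 libraries. Its unstimulated day 12 libraries held 4.15, 4.36 and 4.56 CPM, between these but below sample 2 of the stimulated group.

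The REV-ERB genes and Per3 had narrower ranges. Nr1d1, a brake on Arntl, stood at 132, 135 and 127 CPM in naive and at 102, 103 and 91.3 CPM in stimulated day 12 tendon. Nr1d2 stood at 131, 124 and 112 CPM in naive and at 86.2, 103 and 66.5 CPM in stimulated day 12 tendon. Per3, a period gene with 2 D-boxes in the window shown above, stood at 81.0, 78.8 and 77.4 CPM in naive and at 56.5, 68.2 and 51.1 CPM in stimulated day 12 tendon. For all 3 genes every stimulated day 12 library lay below every naive one. Sample 3 of the stimulated day 5 group lay low for Nr1d1 (67.0 CPM, against 123.3 and 121.5 CPM in samples 1 and 2), as it did for Dbp.

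Against naive tendon, 6 of the 10 genes passed the threshold (adjusted p below 0.05 by edgeR's quasi-likelihood test, adjusted over all genes tested) in the stimulated day 12 group, where 24.4% of all 17108 genes tested did. Among activators and genes that peak with them, Arntl rose by a log2 fold change of 1.79 ± 0.23 (standard error, 3 against 3 libraries, adjusted p = 0.000954). Cry1, a repressor whose RNA peaks later than that of other E-box genes, rose by 0.50 ± 0.11 (adjusted p = 0.00708), from 13.2 ± 1.5 to 18.8 ± 2.4 CPM (SD). Among the E-box and D-box driven genes, Ciart changed by -1.34 ± 0.28 (adjusted p = 0.00696), Dbp by -0.79 ± 0.18 (adjusted p = 0.0110), Nr1d2 by -0.52 ± 0.14 (adjusted p = 0.0194) and Per3 by -0.43 ± 0.10 (adjusted p = 0.00997). These 6 genes also did not overlap between the groups. Nr1d1 (log2 fold change -0.41 ± 0.18, adjusted p = 0.106) and Clock (0.14 ± 0.09, adjusted p = 0.261) did not overlap either but did not pass, which makes 8 of 10 without overlap, against 41.6% of all genes. Per1 (-0.57 ± 0.37) and Per2 (-0.15 ± 0.11), the period genes that answer fastest to outside signals, overlapped between the groups and did not pass (adjusted p = 0.280 and 0.335). The median over the 10 genes was -0.42, against -0.01 over all genes tested.

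The other tendon groups shared the same naive libraries as their control, so their values are set side by side and not counted as further support. Arntl passed alone of the 10 genes in the unstimulated day 12 group (log2 fold change 1.12 ± 0.23, adjusted p = 0.0125), where 18.8% of all genes passed. It also passed alone in the stimulated day 5 group (1.33 ± 0.23, adjusted p = 0.0166), where 2.29% of all genes passed. In the unstimulated day 5 group 0 of the 10 genes passed by edgeR, against 0.0351% of all genes, and 2 had an unadjusted p below 0.05. Arntl stood at 1.003 ± 0.23 there (edgeR adjusted p = 0.272). It was the 1 gene that DESeq2 called (adjusted p = 0.0154), and it passed by edgeR without unstimulated day 5 sample 3 (1.10). Dbp stood at -0.23, -0.40, -0.28 and -0.79 in the unstimulated and stimulated day 5 and the unstimulated and stimulated day 12 groups in turn, and Ciart at -0.59, -0.64, -0.78 and -1.34. The values of both genes were thus below 0 in all 4 groups, and past the threshold in the last; Ciart in the unstimulated day 12 group (adjusted p = 0.0627) also passed by DESeq2, with the sample number as a block and in a fit of only the libraries compared. Libraries did not overlap with naive for 3 of the 10 genes in the unstimulated and 4 in the stimulated day 5 group, against 15.6% and 30.4% of all genes. In the unstimulated day 12 group it was 5 of 10, against 47.7% of all genes.

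**Figure D2:**
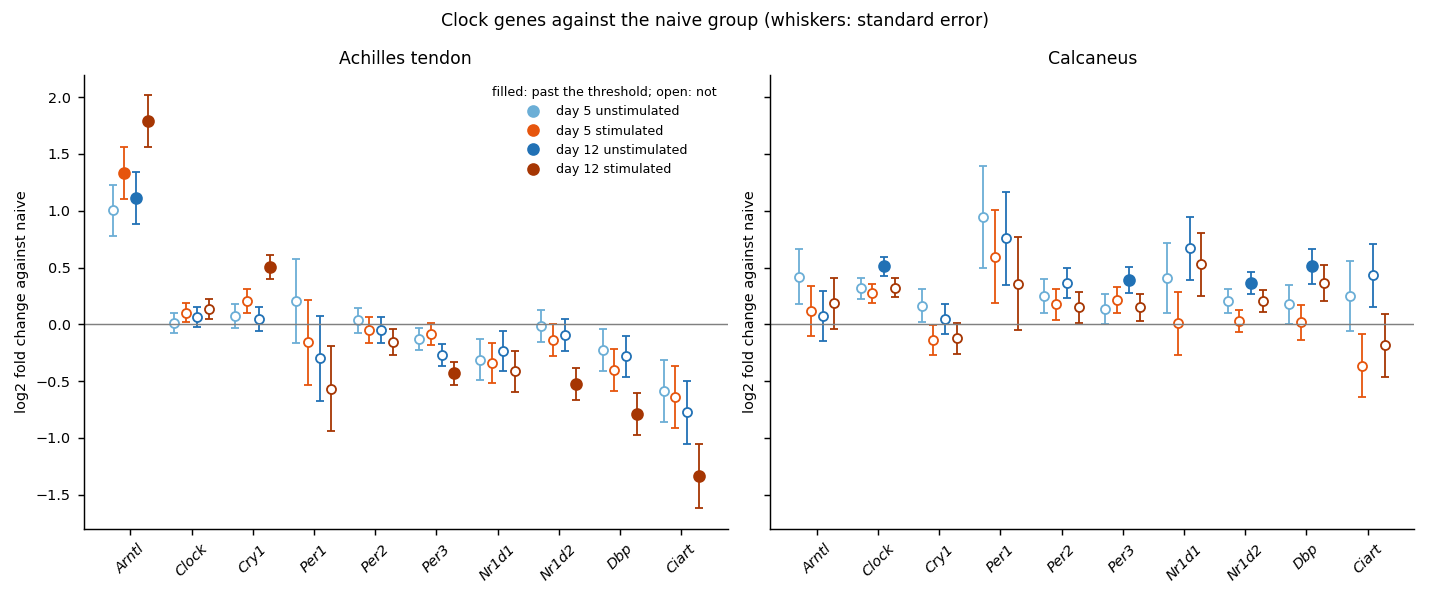
The log2 fold change of each clock gene against naive (y axis) is shown for the 4 later groups of tendon (left) and bone (right); whiskers are standard errors, and filled points passed the threshold. In tendon, values are above 0 for Arntl and below 0 for Dbp and Ciart in all 4 groups, with the largest sizes in the stimulated day 12 group; in bone the 4 filled points all lie above 0 in the unstimulated day 12 group.

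Other genes of the pathway moved in both directions against naive in stimulated day 12 tendon. Of 17 further clock genes listed, 15 were measured, 3 rose and 2 fell. Nfil3, a repressor that competes with DBP at D-boxes, rose by 1.17 ± 0.17 (adjusted p = 0.00158), and Npas2, which can take the place of CLOCK, by 1.31 ± 0.37 (adjusted p = 0.0238). Csnk1d, a kinase of PER proteins, rose by 0.25 ± 0.08 (adjusted p = 0.0346). Hlf, a D-box factor like DBP, changed by -0.89 ± 0.17 (adjusted p = 0.00468). In the unstimulated day 12 group 2 rose and 2 fell: Nfil3 (0.95 ± 0.17, adjusted p = 0.00942), Usp2 (0.41 ± 0.10, adjusted p = 0.0214), Wee1 (-0.75 ± 0.19, adjusted p = 0.0214) and Hlf (-0.61 ± 0.17, adjusted p = 0.0262). None of the 15 passed in either day 5 group, by edgeR, with 3 (unstimulated) and 8 (stimulated) at an unadjusted p below 0.05. Of the 15, 8 lay above and 7 below 0 in the stimulated day 12 group, with a median of 0.02.

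Other gene lists were measured between the same groups, where 24.4% (stimulated day 12) and 18.8% (unstimulated day 12) of all genes passed. Shares of a list near these are at the level of all genes. Muscle fibre markers took 12.3 to 16.9% of counts in naive, 20.7 to 22.1% in unstimulated day 12 and 18.8 to 21.4% in stimulated day 12 tendon, with none of the 15 at 0 in any library, and 10 and 11 of the 15 rose. With the mean log2 level of these markers as a covariate, an alternative added after the data were seen, 4 clock genes passed in the stimulated day 12 group and 0 in the unstimulated one. The log2 fold changes that no longer passed were 0.55 for Cry1 and -1.26 for Ciart in the stimulated and 1.02 for Arntl in the unstimulated group. Muscle fibre shares did not overlap between naive and either day 12 group. This fit therefore cannot separate muscle content from group. Tendon fibroblast markers fell for 6 of 8 (unstimulated) and 3 of 8 (stimulated), and their summed share went from 0.240 to 0.441% in naive to 0.0614 to 0.136% and 0.0442 to 0.179%. Of 12 genes that answer to glucocorticoid hormone, whose release follows both the hour and handling, 4 rose in the stimulated and 2 in the unstimulated day 12 group, led by Fkbp5, a co-chaperone of the hormone's receptor (1.42 ± 0.13 and 1.96 ± 0.14, adjusted p = 0.000151 and 2.46e-05). Of 10 genes that answer to temperature, 1 rose in the stimulated and 1 fell in the unstimulated group, fewer than these shares. Erythroid markers fell for all 5 measured in both, from a share of at most 0.0178% of counts. Of 15 immediate early genes, which are switched on within minutes of a stimulus, 7 fell in each, and 2 rose in the stimulated group. The part of the fibroblast, glucocorticoid, erythroid and immediate early genes in the clock values was not tested.

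Without sample 1 or 2 of the naive group, or sample 1 or 3 of the stimulated day 12 group, Nr1d2 did not pass in stimulated day 12 tendon, nor in a fit of only the 6 libraries compared. Its log2 fold change was between -0.37 and -0.54 in the 4 fits without 1 of these libraries, and 5 or 6 of the 10 genes passed in every fit without 1 library. Arntl in unstimulated day 12 tendon did not pass without naive sample 3 (1.18) or unstimulated sample 2 (1.09). Arntl in stimulated day 5 tendon did not pass without naive sample 3 (1.40) or stimulated sample 1 (1.46).

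Between stimulated and unstimulated tendon, the comparison the study was built for, no clock gene passed. At day 5, 0 of 10 passed by edgeR, where 0.0585% of all genes did, and DESeq2 called 0; 0 had an unadjusted p below 0.05, and 0 were without overlap, against 12.9% of all genes. At day 12, 0 of 10 passed, where 0.345% of all genes did; 4 had an unadjusted p below 0.05 and DESeq2 called 1, Cry1. The 4 were Arntl (log2 fold change 0.67 ± 0.22, adjusted p = 0.233), Cry1 (0.46 ± 0.11, adjusted p = 0.0924), Nr1d2 (-0.43 ± 0.14, adjusted p = 0.235) and Dbp (-0.51 ± 0.18, adjusted p = 0.293). Cry1 was 20.4, 16.02 and 19.97 CPM in stimulated and 13.8, 13.4 and 13.9 CPM in unstimulated libraries, so all 3 stimulated libraries lay higher. Nr1d2, a repressor of Arntl, was 86.2, 103 and 66.5 CPM in stimulated and 112, 116 and 116 CPM in unstimulated libraries, so all 3 lay lower. Cry1, Nr1d2 and Dbp were without overlap, 3 of 10, against 14.7% of all genes. The median over the 10 genes was -0.17 at day 12 and -0.04 at day 5, against 0.01 and -0.00 over all genes.

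For 8 of the 10 clock genes, sample 2 of the stimulated day 12 tendon group lay closer to the unstimulated mean than samples 1 and 3 did; for Clock and Per2 sample 1 was the closest. For Npas2 the group held 2.98, 0.834 and 2.85 CPM, against 0.722, 0.466 and 0.627 CPM in unstimulated libraries. For Hlf it held 9.17, 14.6 and 7.95 CPM, against 13.1, 12.2 and 13.3 CPM. For Arntl, Ciart and Hlf sample 2 thus fell within or beyond the unstimulated libraries, while samples 1 and 3 did not. Without sample 2, 4 clock genes passed: Arntl (log2 fold change 0.88), Cry1 (0.55), Nr1d2 (-0.59) and Ciart (-1.07). No label sets sample 2 apart, and the fit with all 3 samples is the one reported. Of the 15 further clock genes measured, 0 passed at either day by edgeR, with 3 at an unadjusted p below 0.05 each time. The lowest p belonged to Npas2 (1.86 ± 0.40, adjusted p = 0.0700) and Usp2 (-0.44 ± 0.11, adjusted p = 0.0938) at day 12. Usp2, a deubiquitinase that the clock drives, stood at -0.48 ± 0.11 (adjusted p = 0.151) and Npas2 at 1.19 ± 0.39 (adjusted p = 0.403) at day 5. Of the other lists, 1 immediate early gene passed at each day, Nr4a1 at day 5 (-1.46 ± 0.23, adjusted p = 0.0456) and Atf3 at day 12 (3.11 ± 0.53, adjusted p = 0.0301). Muscle fibre shares overlapped between the arms at both days, and 0 of the 15 markers passed at either.

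To put both arms of the clock on 1 scale, the mean log2 CPM of 7 E-box or D-box driven genes (Per3, Nr1d1, Nr1d2, Dbp, Ciart, Tef and Hlf) minus that of 3 activators (Arntl, Clock and Npas2) was taken in each library. It is a description without a test, since the genes were chosen with results of these data known. In tendon this difference was 4.44, 4.51 and 4.18 in naive libraries. It was 3.94, 3.96 and 3.97 in unstimulated and 3.55, 3.70 and 2.91 in stimulated libraries of day 5. At day 12 it was 3.76, 3.94 and 3.93 in unstimulated and 2.37, 3.65 and 2.35 in stimulated libraries. All 6 stimulated libraries (2.35 to 3.70) lay below all 6 unstimulated ones (3.76 to 3.97), which lay below all 3 naive ones. That order depends on the genes taken. Npas2, 1 of the 3 activators, had low levels: 0.610 to 0.829 CPM in unstimulated and 1.24 to 1.81 CPM in stimulated day 5 libraries. At day 12 it held 0.466 to 0.722 and 0.834 to 2.98 CPM. The difference was not taken without Npas2, so the order of the arms may rest on this gene. With all 10 genes of the list of E-box and D-box driven genes and all 5 of the list of activators and genes that peak with them, tried after the data were seen, stimulated libraries lay at 2.45 to 2.96 and unstimulated ones at 3.12 to 3.22 at day 5. At day 12 the groups then overlapped, at 1.81 to 2.91 (stimulated, sample 2 the highest) and 2.89 to 3.13 (unstimulated), and naive libraries lay at 3.51 to 3.73. In bone the groups overlapped: 2.85 to 3.35 in naive, 3.07 to 3.10 and 2.68 to 3.12 in unstimulated and stimulated day 5, and 3.06 to 3.52 and 2.65 to 3.40 in unstimulated and stimulated day 12 libraries.

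**Figure D3:**
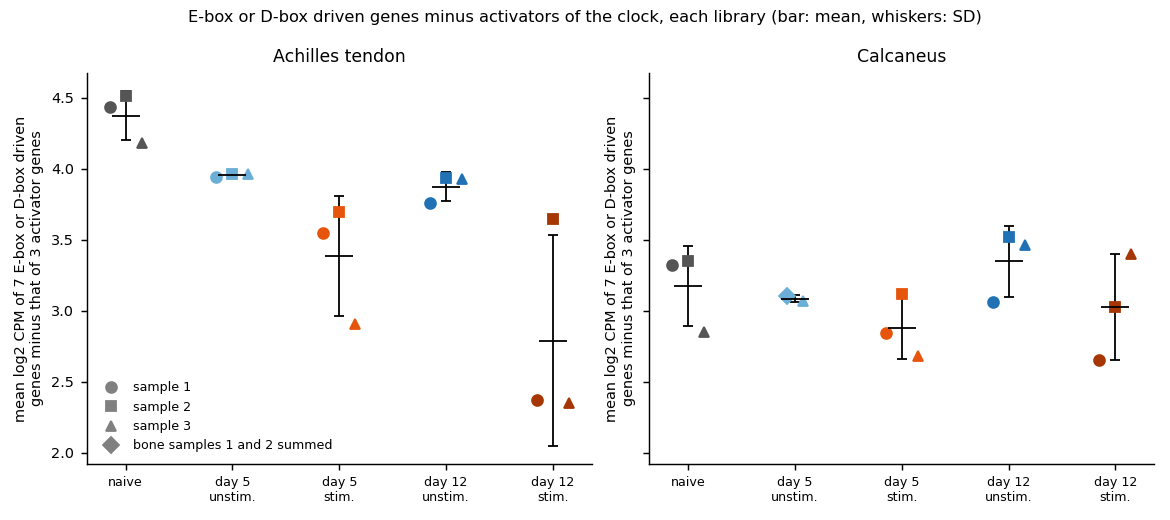
The y axis is the mean log2 CPM of 7 E-box or D-box driven genes minus that of 3 activators in each library (points, marked by sample number), by group on the x axis, with the group mean and SD. In tendon (left) naive libraries lie at 4.18 to 4.51 and stimulated ones between 2.35 and 3.70, while in bone (right) all groups lie within 2.65 to 3.52.

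Between day 12 and day 5 no clock gene passed. In unstimulated tendon 0 of 10 passed by edgeR and by DESeq2, and 0 had an unadjusted p below 0.05, where 0.0234% of all genes passed by edgeR. No clock gene was without overlap there, against 18.7% of all genes, and 1, Per3, in stimulated tendon, against 19.7%. In stimulated tendon 0 passed, where 0.187% of all genes did; 4 had an unadjusted p below 0.05, and DESeq2 called 1, Per3 (edgeR -0.35 ± 0.10, adjusted p = 0.121). Without sample 2 of the stimulated day 12 group 4 passed: Cry1 (0.41), Nr1d2 (-0.54), Per3 (-0.47) and Ciart (-1.19). The stimulation effect itself did not differ detectably between the days: 0 of 10 passed in tendon, with 1 at an unadjusted p below 0.05 and 0 by DESeq2. Of all genes 0% passed in that test by edgeR, with 699 at an unadjusted p below 0.05 and 12 by DESeq2. The differences (day 12 minus day 5) were 0.35 ± 0.31 for Arntl, 0.33 ± 0.15 for Cry1 and -0.33 ± 0.26 for Dbp.

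In bone the pattern across groups was another one. The naive group had the lowest mean for 8 of the 10 genes, and the unstimulated day 12 group the highest for 7: Clock, Per2, Per3, Nr1d1, Nr1d2, Dbp and Ciart. The ratio of the highest to the lowest group mean ran from 1.24 for Cry1 to 1.93 for Per1, and neighbouring groups overlapped in 36 of 40 pairs. Against naive, the unstimulated day 12 group had 4 clock genes past the threshold, all higher, where 21.8% of all 18851 genes passed and 10.1% were higher and passed. All 10 values lay above 0, with a median of 0.41, against 0.03 over all genes.

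**Figure D4:**
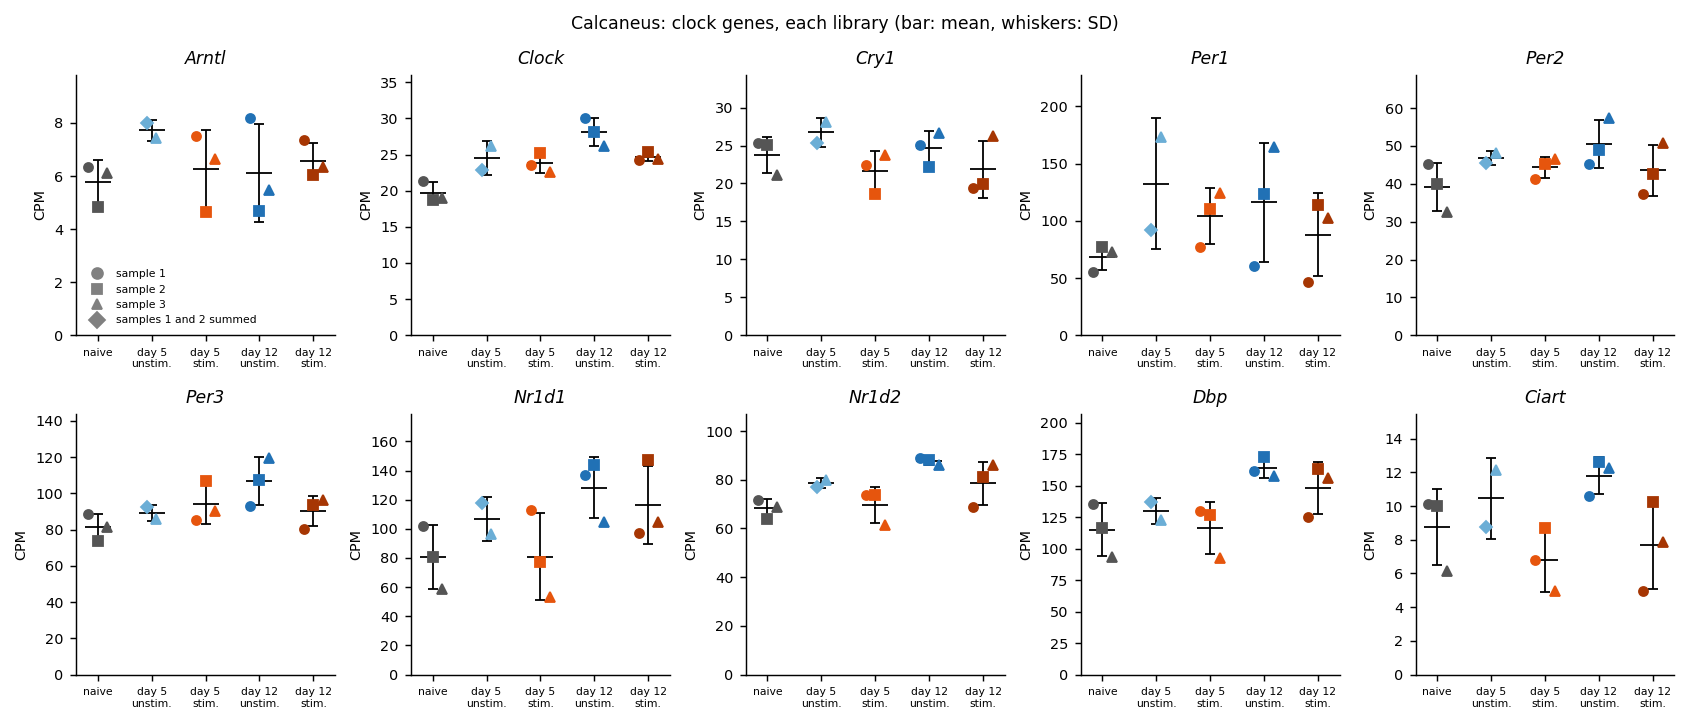
Each panel plots a clock gene's CPM (y axis, from 0) in the bone libraries of the 5 groups (x axis); points are libraries, marked by sample number, and the bar and whiskers are the mean and SD. The diamond is the library summed from the near-identical samples 1 and 2, and Clock, Dbp and Nr1d2 in unstimulated day 12 libraries lie above all naive libraries.

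Clock stood at 21.4, 18.7 and 19.02 CPM in naive and at 30.1, 28.1 and 26.1 CPM in unstimulated day 12 bone, without overlap (log2 fold change 0.51 ± 0.09, adjusted p = 0.00271). Dbp stood at 136, 116 and 93.6 CPM in naive and at 162, 173 and 158 CPM in unstimulated day 12 bone, again without overlap (0.51 ± 0.16, adjusted p = 0.0352). Nr1d2 (ENSMUSG00000021775, chromosome 14, minus strand) rose by 0.36 ± 0.10 (adjusted p = 0.0187) and Per3 (ENSMUSG00000028957, chromosome 4, minus strand) by 0.39 ± 0.12 (adjusted p = 0.0318). An activator and 3 E-box or D-box driven genes were thus higher together, while in stimulated day 12 tendon the passing genes of the 2 arms lay on opposite sides of 0; the difference between the tissues in these changes was not tested. Arntl, the other activator, was at 6.35, 4.82 and 6.12 CPM in naive and at 8.19, 4.69 and 5.47 CPM in unstimulated day 12 bone; the groups overlapped (0.08 ± 0.22, adjusted p = 0.837). In all, 7 of the 10 genes did not overlap, all higher, where 39.5% of all genes were without overlap and 19.5% without overlap and higher.

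Of 16 further clock genes measured in the same comparison 5 rose and 1 fell, against the 21.8% of all genes that passed and the 10.1% that passed and were higher. Rora, which activates Arntl through RORE motifs, rose by 0.92 ± 0.13 (adjusted p = 0.00154), Bhlhe41, a repressor at E-boxes, by 0.65 ± 0.13 (adjusted p = 0.00662) and Hlf by 0.74 ± 0.17 (adjusted p = 0.00971). Timeless, which acts in DNA replication as well, changed by -0.86 ± 0.10 (adjusted p = 0.00100).

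Blood cell markers moved strongly between these bone groups. Erythroid markers took 1.79 to 5.07% of counts in naive and 0.375 to 0.825% in unstimulated day 12 libraries, with none of the 8 at 0, and all 8 fell. Neutrophil markers fell for 6 of 8 (0.418 to 0.962% against 0.179 to 0.360%), while tendon fibroblast markers rose for 6 of 8 and adipocyte markers for 5 of 6. Muscle fibre markers took 1.86, 1.06 and 0.0179% of counts in naive samples 1, 2 and 3, and Dbp had the same order there (136, 116 and 93.6 CPM). In unstimulated day 12 samples they took 1.79, 0.921 and 1.83%, and Dbp was highest in sample 2, where the share was lowest. That relation was not tested. Of 12 glucocorticoid-responsive genes 4 rose, led by Klf9 (0.996, adjusted p = 0.00179), and of 10 temperature-responsive genes 2 rose and 1 fell, again against 21.8% of all genes. Erythroid shares did not overlap between the groups, so a fit with them as a covariate cannot separate erythroid content from group. With the erythroid marker level as a covariate 0 of the 10 clock genes passed, and with the muscle fibre level 1 passed, Clock. Both covariates were added after the data were seen. The count also depended on single libraries: it was 1 without naive sample 2, and 2 without naive sample 3 or without any 1 of the 3 unstimulated day 12 samples. With the erythroid covariate the log2 fold changes were 0.34 for Clock, 0.17 for Dbp, 0.31 for Nr1d2 and 0.59 for Per3, so Clock and Dbp were nearer to 0 and Per3 farther from it than without. With the muscle fibre covariate, those that no longer passed were 0.34 for Dbp, nearer to 0 than without, 0.33 for Nr1d2 and 0.39 for Per3.

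In the other bone groups no clock gene passed against naive. In stimulated day 12 bone 0 of 10 passed by edgeR, where 4.54% of all genes did; 2 had an unadjusted p below 0.05, and DESeq2 called 1, Clock (edgeR 0.32 ± 0.09, adjusted p = 0.0519). Clock also passed without naive sample 1 (0.39). Of 16 further clock genes there, Bhlhe41 (0.54 ± 0.13) and Rora (0.51 ± 0.13) rose and Timeless fell (-0.57 ± 0.10), with adjusted p-values of 0.0425, 0.0440 and 0.0146. In unstimulated day 5 bone 0 passed by either tool, where 0.435% of all genes passed by edgeR, with 1 at an unadjusted p below 0.05. Rora was the 1 further clock gene that rose (0.74 ± 0.14, adjusted p = 0.0480). Markers of keratinocytes, cells of the skin, took 0.0216 and 0.0234% of counts in the near-identical samples 1 and 2 of that group. They took 0.000834% in its sample 3 and 0.000508 to 0.000632% in naive bone. Their part in the clock values was not tested. In stimulated day 5 bone 0 passed by either tool, where 0.228% of all genes passed by edgeR, with 1 at an unadjusted p below 0.05. The medians over the 10 genes were 0.19, 0.25 and 0.07 in these 3 comparisons, which share the naive libraries. Libraries did not overlap with naive for 1, 6 and 1 of the 10 genes, against 25.5%, 36.7% and 22.6% of all genes.

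Between stimulated and unstimulated bone no clock gene passed. At day 5, 0 of 10 passed by edgeR and by DESeq2, and 0 had an unadjusted p below 0.05. Of all genes 0% passed there by edgeR, with 1522 at an unadjusted p below 0.05 and 44 by DESeq2. At day 12, 0 passed by either tool, where 0.0371% of all genes passed by edgeR, and 2 had an unadjusted p below 0.05. The values lay below 0 for 9 of the 10 genes at each day, with medians of -0.24 and -0.18. Ciart was without overlap and lower in stimulated bone at both days, at -0.61 ± 0.31 (adjusted p = 0.638) and -0.62 ± 0.28 (adjusted p = 0.332). At day 5 it held 6.79, 8.69 and 4.93 CPM in stimulated and 8.77 and 12.2 CPM in unstimulated libraries. At day 12 it held 4.98, 10.2 and 7.87 CPM in stimulated and 10.6, 12.6 and 12.2 CPM in unstimulated libraries. In all, 3 of 10 genes were without overlap at each day, where 28.7% (day 5) and 16.2% (day 12) of all genes were.

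Between day 12 and day 5 no clock gene passed in bone either. In unstimulated bone 0 of 10 passed by edgeR and DESeq2, with 0 at an unadjusted p below 0.05, and in stimulated bone 0 passed by both, with 1. Of all genes 0% passed by edgeR in either, with 2375 and 1987 at an unadjusted p below 0.05 and 240 and 123 by DESeq2. Libraries did not overlap for 3 and 0 of the 10 genes, against 34.2% and 15.3% of all genes. The change of the stimulation effect between the days in bone was also without a passing clock gene by edgeR or DESeq2, with 0 at an unadjusted p below 0.05; of all genes 0% passed there by edgeR, 2008 had such a p and DESeq2 called 59.

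The stimulation effect was then compared between tissues. At day 12, 0 of 10 clock genes passed, where 0.222% of all 19845 genes did, with 1 at an unadjusted p below 0.05 and 0 by DESeq2. The largest difference was that of Cry1, 0.57 ± 0.18 higher in tendon (adjusted p = 0.215). Arntl differed by 0.52 ± 0.33 and Dbp by -0.41 ± 0.26 (tendon minus bone). At day 5, 0 passed, with 1 at an unadjusted p below 0.05 and 0 by DESeq2; of all genes 0% passed by edgeR, 1248 had such a p and DESeq2 called 49. A difference of the stimulation effect between the tissues was thus not detectable for these genes with 3 libraries a group, or 2 in unstimulated day 5 bone.

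In naive samples the tissues themselves differed, with 68.4% of all genes past the threshold between tendon and bone, 33.3% higher in tendon, and 74.2% without overlap. Muscle fibre markers took 12.3 to 16.9% of counts in naive tendon and 0.0179 to 1.86% in naive bone. Erythroid markers took 0.0116 to 0.0178% and 1.79 to 5.07%. The part of such cell content in the clock values below was not tested. Of the 10 clock genes 6 were higher in tendon: Nr1d2 by a log2 fold change of 1.53 ± 0.13, Nr1d1 by 1.39 ± 0.25, Dbp by 1.37 ± 0.18, Per3 by 0.65 ± 0.11, Clock by 0.53 ± 0.09 and Per2 by 0.49 ± 0.13 (adjusted p between 7.86e-10 and 0.00226). With Arntl below, 7 of the 10 were without overlap. On a scale common to both tissues Dbp was 234 ± 12 CPM in tendon and 90.3 ± 17.6 in bone, and Nr1d1 166 ± 5 and 63.3 ± 17.8 CPM (SD, n = 3). Arntl was 3.14, 2.81 and 3.42 CPM in tendon and 5.02, 3.82 and 4.72 in bone, lower in tendon without overlap and just short of the threshold (-0.53 ± 0.24, adjusted p = 0.0511). It passed there under 6 alternatives, with log2 fold changes between -0.52 and -0.64: DESeq2, its size factors, the sample number as a block, the bone pair kept as 2, only the libraries compared, and without naive bone sample 2. Cry1 (-0.16 ± 0.13, adjusted p = 0.282), Ciart (0.45 ± 0.28, adjusted p = 0.164) and Per1 (0.81 ± 0.41, adjusted p = 0.0865) did not pass. Of 17 further clock genes 10 were higher and 1 was lower in tendon, led by Bhlhe41 (1.66 ± 0.16, adjusted p = 3.06e-09) and Tef, a D-box factor (1.44 ± 0.14, adjusted p = 3.48e-09). Rora was higher by 1.49 ± 0.14 (adjusted p = 4.53e-09).

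Within groups, the arms were compared library by library after the group means were removed, in 6 relations. In tendon, Arntl and Dbp had a Pearson r of -0.641 (permutation p = 0.0818) and a Spearman rho of -0.543 (permutation p = 0.107) over 15 libraries; the adjusted p-values were 0.259 and 0.586. Without the 2 libraries farthest from the median r was -0.581. Dbp in tendon and in the same-numbered bone library had an r of 0.621 (permutation p = 0.0864) and a rho of 0.504 (permutation p = 0.195) over 12 pairs, adjusted to 0.259 and 0.586, and an r of 0.552 without 2 pairs. The other 4 relations, Arntl with Nr1d1 in tendon and with Nr1d1 and Dbp in bone, and Arntl across tissues, had an r between -0.410 and 0.306 (adjusted permutation p between 0.524 and 0.863). None of the 6 passed.

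Per1 (ENSMUSG00000020893, chromosome 11, plus strand), the period gene that light, glucocorticoids and cAMP switch on within the hour, varied widely within groups. In tendon it spanned 29.9 to 108 CPM and in bone 46.9 to 173 CPM. It did not pass in any of the 21 comparisons. With the sample number as a block it passed in stimulated day 12 tendon against naive (log2 fold change -0.55) and between naive tendon and bone (0.72), and in the latter also without naive tendon sample 1 (1.08). In each of the 10 groups of 3 deposited libraries the lowest Per1 value was that of the sample numbered 1. For naive tendon the samples numbered 1, 2 and 3 held 45.01, 87.0 and 115 CPM of the plain library total, and for unstimulated day 12 bone 57.0, 124 and 166 CPM. Of 15388 genes with a mean of at least 1 CPM, 2 (0.013%) were lowest in sample 1 of all 10 groups: Per1 and Ddit4, a gene switched on by glucocorticoids and other stress, both named after their values were seen. For sample 2 it was 0 genes and for sample 3 it was 2. In unstimulated day 5 bone samples 1 and 2 are the near-identical pair, at 89.5 and 93.5 CPM. No other clock gene kept its place in all groups. The largest counts among them were those of Arntl, highest in sample 1 in 8 of the 10 groups, Dbp (sample 2, 8 groups) and Cry1 (sample 3, 8 groups). Nr1d1 was highest in sample 3 in 0 groups and lowest there in 7. How many of all genes reach such counts was not taken, so these counts are a description of picked genes. The labels do not say what a number stands for, and no test was made.

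**Figure D5:**
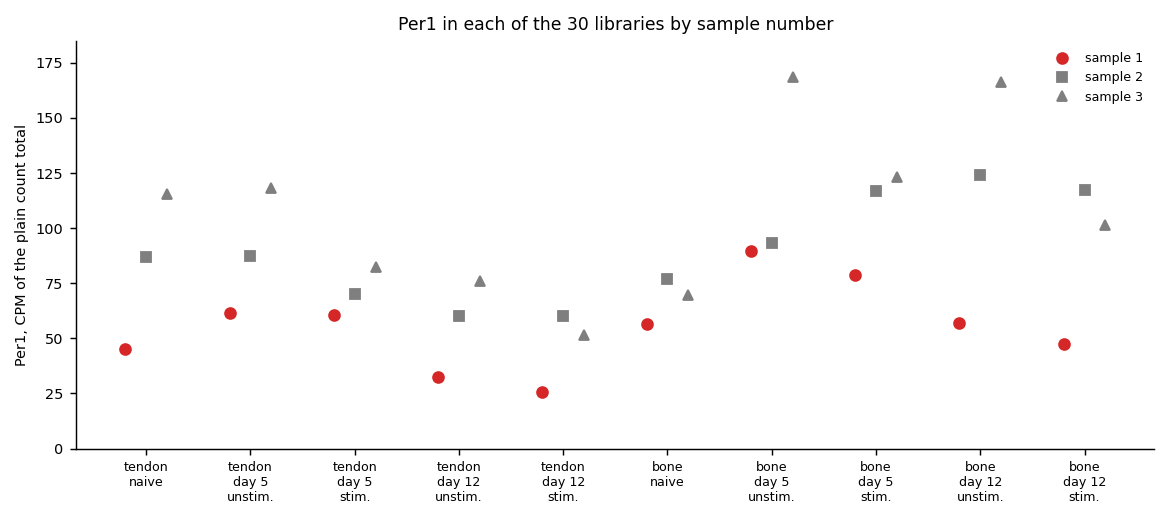
Per1 is plotted in CPM of the plain count total (y axis, from 0) for each of the 30 deposited libraries, by group (x axis) and sample number (symbol). The sample numbered 1 (red) is the lowest of its 3 in all 10 groups.

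The genes whose pattern over the 29 libraries was most like that of Arntl and Dbp were looked up among 13748 genes. The measure was the Pearson r of log2 CPM centred on each tissue's mean. The clock genes named at the start were left out of this ranking. For Dbp the highest r was that of Hlf, 0.813, followed by Klf7, Thrb, Kdm1b and Plekha6, and the lowest that of Gpx1, -0.816, followed by Myo10, Mpp1, Fgd6 and Acot8. For Arntl the highest were Nt5dc3 (0.830), Dnajb6 (0.830), Edf1, Slc16a9 and Ubb, and the lowest Myo7a (-0.815), Ptprv, Dzip1l, Rrbp1 and Itpripl2. None of the further clock genes was among these 5 highest and 5 lowest for Arntl. For the clock genes left out, the ranking cannot show whether they varied with Arntl. Their r with Arntl within each tissue was taken apart from it. It ran from -0.923 for Ciart to 0.742 for Cry1 over 15 tendon libraries. Over 14 bone libraries it ran from -0.335 for Per3 to 0.283 for Cry1. These libraries share groups, so such values describe the libraries and carry no test.

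Some of the 10 genes overlap a neighbour in GENCODE M21 (GRCm38): Nr1d1 (chromosome 11, 98767932 to 98775333, minus strand) overlaps Thra, Dbp (chromosome 7, 45705088 to 45710203) overlaps Sphk2, Per3 overlaps Camta1, Ciart overlaps C920021L13Rik and Arntl overlaps Gm45355. The strand setting of the counting is not given in the sources used here, so for pairs on opposite strands reads from either gene cannot be told apart. Clock spans the pseudogene Ube2n-ps1 and Gm43658 on its own strand.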

How the data were processed

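RNA of 30 poly-A libraries was sequenced. The authors deposited expected counts per gene, all whole numbers and not normalized; cutadapt 2.3, STAR 2.7.8a, RSEM 1.3.3, FastQC 0.11.8, MultiQC 1.7 and GRCm38 are named in the submitters' processing notes, without their settings. RSEM shares ambiguous reads between genes by estimation, so counts of overlapping genes are uncertain. The sources used here give neither the annotation release nor the strand setting. Genes with a count of about 10 in enough libraries and at least 15 in all were kept by edgeR's filter (edgeR 4.0.16, R 4.3.3). Counts were scaled by TMM and tested with edgeR's quasi-likelihood test over all libraries of a tissue, or of both for contrasts between tissues; a standard error is the log2 fold change divided by the root of F. P-values are two-sided, Benjamini-Hochberg adjusted over all genes of a comparison, 21 comparisons in all. Log2 CPM used a prior count of 2. The fit was tried on simulated data with planted changes of 2-fold and 4-fold, and it recovered the median size of the 4-fold ones. Smaller changes were not simulated, so this does not say how often they would be found. Genes were named by rule: all 10 clock genes, and of each further list up to 4 genes with the smallest adjusted p among those passing, or up to 2 where none passed. One gene that this rule names is not reported here. The clock genes and the lists were chosen with earlier results of these data known. Alternatives were DESeq2 1.42.0, its size factors, no count filter, a block for the sample number, a fit of the compared libraries alone, the bone pair kept as 2 libraries, each library left out, another prior count and, added later, marker covariates and longer lists of both clock arms. Wherever bone entered, the fits with a block also kept the bone pair as 2 libraries. Permutation tests used 100000 resamples.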

Additional observations from a re-analysis of the deposited data

How the results depend on the processing

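Of the 10 genes the lowest level was 2.03 CPM, that of Ciart in a tendon library, where libraries held at least 24.5 M counts; neither depth nor group size was varied. Of 306 summary values under an alternative, 272 were rated the same as reported and 34 moved. A count of clock genes past the threshold was rated the same within 1.5 times the reported count, or at 0 in both fits. Correlations were rated by sign and threshold, and group means of the difference between arms by the SD of the group. None of the 18 passing results changed sign. For the values that moved the cause was not tested, and fewer libraries or genes enter some of these fits. With 1 library left out the count ran from 0 to 4 for stimulated against unstimulated tendon at day 12 and for stimulated tendon at day 12 against day 5, and from 0 to 1 for tendon against naive in the unstimulated day 5, stimulated day 5 and unstimulated day 12 groups. It ran from 1 to 5 in unstimulated and from 0 to 1 in stimulated day 12 bone against naive. DESeq2 gave 1 in stimulated against unstimulated tendon at day 12, 1 in unstimulated day 5 and 2 in unstimulated day 12 tendon against naive, 1 in stimulated tendon between the days and 1 in stimulated day 12 bone against naive. In unstimulated day 12 tendon against naive, a fit of only the libraries compared gave 3 and the muscle covariate 0. In unstimulated day 12 bone against naive the muscle covariate gave 1 and the erythroid covariate 0. With the near-identical bone libraries kept as 2, stimulated day 12 bone against naive gave 1. With a prior count of 0.5 the mean difference between arms in unstimulated day 5 tendon was 3.99. With all genes of the lists of both arms, added after the data were seen, these means were 3.59 in naive, 3.15 and 2.77 in unstimulated and stimulated day 5 and 3.04 and 2.22 in unstimulated and stimulated day 12 tendon, and 2.52 in naive, 2.53 and 2.44 in unstimulated and stimulated day 5 and 2.78 and 2.47 in unstimulated and stimulated day 12 bone. Of 2800 values of single genes under an alternative, 32 gained a call and 32 lost one, which only the 18 passing results could. In unstimulated day 12 bone against naive, Dbp passed in 6 and Per3 in 7 of 14 alternatives. Nr1d2 in stimulated day 12 tendon against naive passed in 7 of 12. Arntl, Per3 and Dbp there, and the passing genes between the naive tissues, passed in all 12.

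By the check over all genes the sample numbers could not be taken to pair the samples. Same-numbered libraries of different groups deviated together with a median correlation of 0.08 in tendon and -0.10 in bone. Libraries with different numbers had medians of -0.07 and 0.03, so same-numbered ones lay higher in tendon and lower in bone. Of the libraries, 7 of 15 in tendon and 2 of 15 in bone correlated best with their own number. Per1, named after its values were seen, was lowest in the sample numbered 1 of all 10 groups. Whether clock genes follow the number was not tested. With the number as a replicate block the count was 3 in unstimulated and 7 in stimulated day 12 tendon against naive, 5 in unstimulated day 12 bone against naive and 8 between the naive tissues, and unchanged in the others. In bone and between the tissues these fits also kept the near-identical bone libraries as 2. There the effects of both settings cannot be told apart.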
